A study of Homo sapiens with 23 samples.

Results

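The Y163C line was 1 of 10 MCF10A lines made to express a missense mutant of p53, and its RNA was set here against the mean and the range of the other 9 mutant lines. The comparison took in 14884 of the 58358 genes in the table, those that reached 1 on the log2 scale in 3 or more of the 13 RNA libraries. Among the widest gaps to every other mutant line were higher values of ARVCF, ZNF823 and ATPAF1 and lower values of SELENOM, FBLN5 and AGPAT2. The tight junction genes CLDN7, CLDN1, F11R and OCLN were higher in Y163C than in any other mutant line, and the matrix genes FBLN5, HSPG2 and COL8A1 were lower than in any. F11R, OCLN and COL8A1 were close to the next line, by 0.07, 0.18 and -0.04, and failed the rule with library medians set equal. For FBLN5 the control libraries were lower than Y163C. By the rule used here 0 of 31 genes of a wild-type p53 target list and 0 of 30 proliferation genes lay outside the other lines. Over all genes 6.60% were higher and 0.988% lower, shares at which lists of this size can hold none. Of the 10 mutant lines, Y163C had the fewest genes outside the rest, 1130, closely followed by R273C with 1139.

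MCF10A is a spontaneously immortalized, non-tumorigenic line of human mammary epithelial cells that carries wild-type p53. The Y163C line and the other 9 mutant lines (R175H, H179R, Y220C, Y234C, G245S, R248Q, R248W, R273C and R273H) carried a lentiviral mutant p53 with a V5 tag at its C-terminus and kept the endogenous wild-type protein. The study counts Y163C among 6 structural mutants, which affect the fold of the DNA-binding domain, and 4 others as DNA contact mutants. The 3 control libraries came from the unmodified cells (WT), from cells overexpressing wild-type p53 from another vector (WTOE) and from cells with an shRNA knockdown of p53 (WTKD), and were kept out of the mean and the range. All RNA came from cells without treatment, and each line had 1 library. No p-value was therefore computed, the range of the other 9 is a spread between different mutants, and what belongs to the mutation cannot be told apart from what belongs to the line or to the library. A stable line is a selected population, and the amount of mutant protein in each line is not part of these data.

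The p53 protein is a transcription factor that binds DNA as a tetramer and switches on genes of cell cycle arrest, DNA repair and apoptosis after damage. Missense mutants cluster in its DNA-binding domain, and those that unfold the domain differ from those that remove a DNA contact. A mutant that shares a cell with the wild-type protein can join its tetramers and lower their activity. The tyrosine replaced by cysteine in Y163C lies in that domain.

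Values are log2(TPM + 1), where TPM is the abundance of a transcript per 1000000 transcripts. The 3 controls are named by their labels. Of 12 mammary epithelial markers, 11 were at 1 or more in Y163C, with a summed level of 3284 TPM against 1452 to 5829 TPM in the other 9. The blood and neural markers summed to 2.59 and 0 TPM in Y163C. Fibroblast markers summed to 41.0 TPM, against 4.66 to 76.8 TPM. The number of counted reads behind each library, estimated from the spacing of the lowest values, was 10.4 in Y163C and 7.84 to 12.9 in the others, in units of 1000000 reads. Duplicate reads were kept in these amplified libraries, so estimated reads include copies of the same molecule and overstate the depth behind a value. Genes above 0 numbered 15975 in Y163C, more than in any other mutant line (12122 to 15602).

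Y163C was above all 9 other lines and at least 1 above their mean in 983 genes (6.60% of those compared), and below all 9 and at least 1 below their mean in 147 (0.988%). On this log2 scale a difference of 1 is a doubling of TPM + 1. With a difference of at least 2 these counts were 305 (2.05%) and 26 (0.175%), and with a gap of at least 1 to the nearest line they were 130 (0.873%) and 10 (0.0672%). The same rule applied to each other line in turn gave sums from 1139 to 4734 genes, the highest in Y234C. Without a minimum difference, 1349 genes (9.06%) were above and 238 (1.60%) below the range of the other 9. At the threshold itself, NBDY and GALNT3 differed by 1.00 and counted as higher, while CREM and SRP72 also differed by 1.00 after rounding and did not. On the lower side ABHD15 and RNF213 were just past the threshold, RNF213 at -1.01, and SELENON and BTBD2 just short of it.

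The excess of higher over lower genes depended on the scale and was not particular to Y163C. As deposited, the higher share of the genes outside was 87.0% in Y163C. By the same rule it was 90.3% in R273C, 84.4% in R248W, 31.9% in R273H and 19.6% in Y234C. Genes listed at 0 in at least 1 other line, 38.4% of those compared, could not be called lower. The median value over the genes compared was 3.76 in Y163C and averaged 3.51 in the other 9, with 2.63 in Y234C and 2.85 in R273H. With all library medians set equal, 599 genes were higher and 447 were lower, so that the higher share of the genes outside was 57.3%, against 87.0% in the values as deposited. Of the 983 higher genes, 583 were among these 599, and 140 of the 147 lower genes were among the 447. With R273H and Y234C both left out the counts were 829 higher and 297 lower. Y163C still had the smallest sum of genes outside with equal medians, 1046 against 1405 to 3933 in the other lines, and the smallest spread of differences, with a standard deviation over genes of 0.889 against 0.921 to 1.44.

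**Figure D1:**
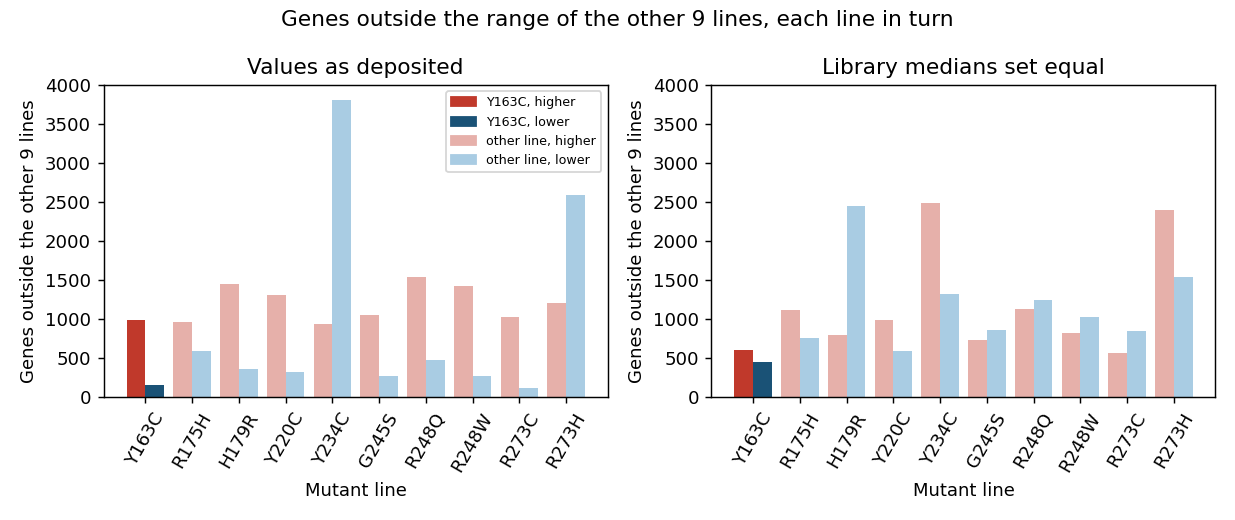
Number of genes above (red) and below (blue) the range of the other 9 mutant lines by at least 1 from their mean (y axis), with each of the 10 lines (x axis) taken in turn, in the values as deposited (left) and with library medians set equal (right). Y163C, in dark colours, has 983 higher and 147 lower genes on the left and 599 and 447 on the right.

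ARVCF had the widest gap of any protein-coding gene. It encodes a catenin of the p120 family that binds cadherins at adherens junctions, and lies on chromosome 22 (GRCh38, 19969896 to 20016823, minus strand). Its value was 6.06 in Y163C, against a lowest of 0.00, a median of 1.07 and a highest of 2.37 in the other 9 lines, which left a gap of 3.70. The estimate was 837 reads in Y163C and 16.4 reads on average in the others. The libraries labelled WTOE, WTKD and WT, at 0.00, 1.07 and 0.00, lay with the other mutants.

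ZNF823, a C2H2 zinc finger gene on chromosome 19 (11721265 to 11739009, minus strand), came next. It stood at 5.76 in Y163C, against 0.00, 0.47 and 2.47 as the lowest, median and highest of the other 9, and the library labelled WTOE reached 3.69. ATPAF1, an assembly factor of the mitochondrial ATP synthase, stood at 8.01 in Y163C, against 3.08 to 5.65 with a median of 5.29. It had an estimated 3266 reads in Y163C and 390 on average in the others, and none of the 3 controls passed 5.56. PLA2G4A, the cytosolic phospholipase A2 that frees arachidonic acid from membranes, stood at 6.60 in Y163C, against 2.10 to 5.04 with a median of 4.24. For this gene the libraries labelled WTKD, at 6.02, and WT, at 5.22, also lay above the other 9 mutant lines.

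SMIM4, a small mitochondrial protein needed to assemble respiratory complex III, stood at 4.96 in Y163C, against 0.00 to 3.15 with a median of 1.94. SMYD4, a member of the SET and MYND domain family, stood at 4.81, against 0.00 to 3.07. ZCCHC4, a methyltransferase of the large ribosomal RNA, stood at 4.48, against 0.00 to 2.93. In all of these, Y163C was apart from a group of lines that were themselves spread over a wide range. ZNF574, another zinc finger gene, stood at 6.53 against 3.59 to 5.08, and PHLDB1, a pleckstrin homology domain protein of the cell cortex, at 5.51 against 0.70 to 4.15. The other widest gaps sat on few reads. HIGD1B had an estimated 17.9 reads in Y163C at a value of 3.33, R248Q was at 0.86 and the remaining 8 lines were listed at 0, and the libraries labelled WTOE and WT were at 6.95 and 3.07. GPRC5D, an orphan receptor, had 20.8 reads at 2.97, AC107871.1 had 32.2 at 1.57, ANXA9, an annexin, had 34.9 at 3.42, and CCDC28B had 35.6 at 2.34. WTKD and WT were above Y163C for CCDC28B, at 3.34 and 4.70, WT for ANXA9, at 3.50, and WTOE for AC107871.1, at 1.71. ARSG, a lysosomal sulfatase, had 135 reads at 3.33, against 0.00 to 1.96 in the other mutants. AC107871.1 shares 1021 exon bases with CLN6 on its own strand and 2934 with PIAS1 on the other, so its reads cannot be assigned with certainty, and SMIM4, SMYD4 and HIGD1B also share exon bases with an expressed gene on the opposite strand.

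**Figure D2:**
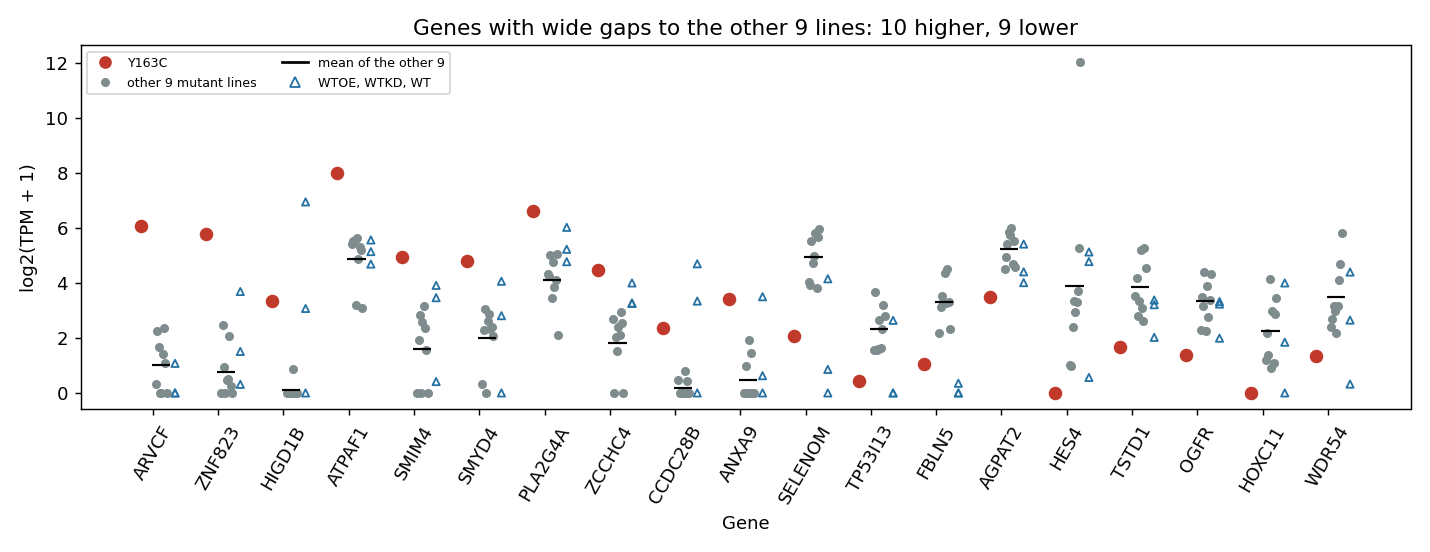
Values in log2(TPM + 1) (y axis) of 10 higher and 9 lower protein-coding genes (x axis) with wide gaps, with Y163C in red at the left of each gene, the other 9 mutant lines in grey with their mean as a bar, and the 3 control libraries as open triangles. ARVCF at 6.06 and ATPAF1 at 8.01 stand clear of every other library. Controls lie higher than Y163C for HIGD1B (WTOE, at 6.95), CCDC28B (WTKD and WT) and ANXA9 (WT).

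SELENOM, a selenoprotein of the endoplasmic reticulum encoded on chromosome 22 (31104772 to 31120069, minus strand), had the widest gap on the lower side. Its value was 2.08 in Y163C, against a lowest of 3.83, a median of 4.98 and a highest of 5.98 in the other 9 lines, a gap of -1.75. The libraries labelled WTOE and WTKD, at 0.86 and 0.00, were lower still, and that labelled WT was at 4.15. FBLN5, which encodes a fibulin of elastic fibres, stood at 1.07 in Y163C, against 2.18 to 4.49 with a median of 3.29. All 3 controls were at or below 0.35 for FBLN5, so here Y163C lay between the controls and the other mutants.

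AGPAT2, an enzyme of phosphatidic acid synthesis, stood at 3.49 in Y163C, against 4.52 to 5.99. HES4, a transcriptional repressor of the HES family, was listed at 0 in Y163C, against 0.97 to 12.03 with a median of 3.31, and the highest value was that of R273H. HOXC11, a homeobox gene, was also listed at 0 in Y163C and in the library labelled WT, against 0.89 to 4.16 in the other mutants. For HES4 and HOXC11 a value of 0 gives no fold. The lowest values of HES4 in the other mutants, in H179R and R175H, rested on an estimated 2.15 reads each. SECTM1, a secreted and transmembrane protein, stood at 3.34 against 4.12 to 7.62, and HPCAL1, a neuronal calcium sensor relative, at 4.97 against 5.78 to 7.63. SFXN3, a sideroflexin of the mitochondrial membrane, stood at 3.30 against 4.14 to 7.90, and UQCC1, another assembly factor of complex III, at 2.61 against 3.41 to 5.39. SMIM4 and UQCC1, which serve the same complex, lay on opposite sides. TP53I13, a gene named as induced by p53, rested on an estimated 3.70 reads in Y163C, at a value of 0.44 against 1.56 to 3.67. TP53I13 shares 431 exon bases with ABHD15 on the opposite strand, and ABHD15 was also lower, at 2.31 against 2.44 to 4.71. TSTD1, OGFR, WDR54 and MAMLD1 were also among the widest gaps, at 1.67, 1.36, 1.33 and 1.45 in Y163C. The library labelled WT was lower still for WDR54 and MAMLD1, at 0.32 and 0.00, as were WTOE and WT for TP53I13, both at 0.00.

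Among genes of other types, RF00019, a small RNA gene named for its RNA family at 85264296 to 85264402 of chromosome 1, had the widest gap. It stood at 7.64 in Y163C with an estimated 48 reads, against 4.12 in Y220C, 3.41 in R248Q and 0 in the other 7 lines and all 3 controls. RN7SL368P and AC090673.2 rested on an estimated 5 and 8 reads, with all 9 other lines listed at 0 and with WTOE and WTKD above 1. On the lower side were the pseudogene MTND4LP30, listed at 0 in Y163C against 1.47 to 5.57, the antisense gene RNASEH1-AS1, at 2.21 against 3.59 to 5.77, and the pseudogene ACTG1P14, at 0.48 against 1.80 to 5.11. MTND4LP30 in R248W, the lowest of the other lines, rested on an estimated 1 read. Small RNA families and processed pseudogenes have near-identical copies, and the reads of one may have been counted in another.

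The control libraries were kept out of the mean and the range but counted in the filter on low values. They were outside the other 9 lines in the same direction more often among the genes called than among all genes. Of the 983 higher genes, WTKD was also above the range of the other 9 in 283 (28.8%), WTOE in 249 (25.3%) and WT in 170 (17.3%), against 11.4%, 12.05% and 11.5% of all genes compared. Of the 147 lower genes, WTOE was also below the range in 52 (35.4%), WTKD in 47 (32.0%) and WT in 32 (21.8%), against 4.82%, 3.24% and 4.89%. At least 1 control shared the direction in 501 higher genes (51.0%) and in 94 lower genes (63.9%). Y163C lay beyond all 12 other libraries in 652 (66.3%) and 86 (58.5%) of them. These shares are descriptions, since the same 9 lines set the range for both. Higher genes at or near 0 in the other 9 lines, such as RN7SL368P, passed the filter only because controls reached 1. This raises the shares on the higher side by construction, by an amount that was not tested.

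Epithelial cells are joined by tight junctions, built from claudins, occludin and F11R, and by cadherin-based adherens junctions and desmosomes. Of 26 genes of an epithelial junction list, 4 were higher by the rule (15.4%, against 6.60% of all genes), none was lower, and 20 were above the median difference of all genes. In bulk RNA, fewer cells with a transcript and less of it per cell cannot be told apart. CLDN7, a claudin, stood at 5.47 in Y163C, against 0.00, 2.89 and 4.71 as the lowest, median and highest of the other 9. CLDN1 stood at 5.93 against 3.29 to 5.27, F11R, a junctional adhesion molecule, at 5.76 against 0.88 to 5.69, and OCLN, occludin, at 1.65 against 0.00 to 1.47. The gap was wide for CLDN7 (0.77) and CLDN1 (0.66) and narrow for F11R (0.07) and OCLN (0.18), and the last 2 were no longer outside with equal medians. WTOE was above Y163C in CLDN1, at 6.87, and in OCLN, at 2.08. CDH1, E-cadherin, stood at 6.10 in Y163C, against 0.25 to 6.29 with a median of 5.85, and ESRP1, an epithelial splicing regulator, at 5.69 against 0.22 to 6.02. For these genes, which were chosen after their values were seen, Y163C lay near the upper end of the range. The median difference of the list was 0.58 above that of all genes, against -0.94 to 0.59 when each other line took its turn, with Y220C the highest. Without R273H and Y234C it was 0.56 and above the others (at most 0.41).

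The basal mammary list, of the keratins, laminins and integrins of the basal layer, gave 0.50 above all genes, against -1.16 to 1.10, and none of its 20 genes lay outside by the rule. TP63, the basal lineage transcription factor related to p53, stood at 4.71 in Y163C, against 0.00 to 4.87 with a median of 3.25. KRT14, a basal keratin, stood at 5.38 against 0.00 to 8.23 with a median of 3.14. Of 10 luminal genes and 10 genes of squamous differentiation none lay outside either, with list medians of -0.20 and 0.73 relative to all genes. With 6.60% of all genes higher and 0.988% lower, lists of 10 to 20 genes can hold none at those shares.

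Collagens and other matrix proteins lay the other way. Of 25 such genes, 3 were lower (against 0.988% of all genes), none was higher, and 2 were above the median difference of all genes. HSPG2, which encodes the basement membrane proteoglycan perlecan, stood at 2.76 in Y163C, against 3.20, 4.36 and 5.74 as the lowest, median and highest of the other 9. COL8A1, a short-chain collagen, stood at 5.90 against 5.94 to 8.80, a gap of -0.04 that was lost with equal medians. FBLN5 was the third. FN1, fibronectin, was within the range, at 6.70 against 5.31 to 9.76. The list's median was -0.65 relative to all genes, below every other line taken in turn (-0.38 to 0.87), and still so without R273H and Y234C (-0.57, against -0.23 to 0.98). After the median of each library was set equal within bins of GC content, it was -0.31 and within the others (-0.37 to 0.61).

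Genes around the matrix were mixed. TIMP1, the secreted inhibitor of matrix metalloproteases, stood at 9.77 in Y163C, against a lowest of 10.28, a median of 11.27 and a highest of 14.59 in the other 9, and the controls, at 9.52, 10.00 and 10.57, were closer to Y163C. ITGA5, the alpha chain of the fibronectin receptor, stood at 5.76 against 6.41 to 7.52. WTOE was at 5.51 and WTKD at 5.74, but WT, at 7.32, lay within the other mutants. Both genes were lower in Y163C than in each other mutant while at least 1 control was lower than Y163C. MMP15, a membrane-bound metalloprotease, was higher, at 3.11 against 0.00 to 2.83, but not with a pseudocount of 5 TPM. The library labelled WT was above Y163C for MMP15, at 3.73. Among 22 mesenchymal genes ITGA5 was the one outside (4.55% lower, against 0.988% of all genes). The list's median was -0.39 relative to all genes, within the other lines.

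**Figure D3:**
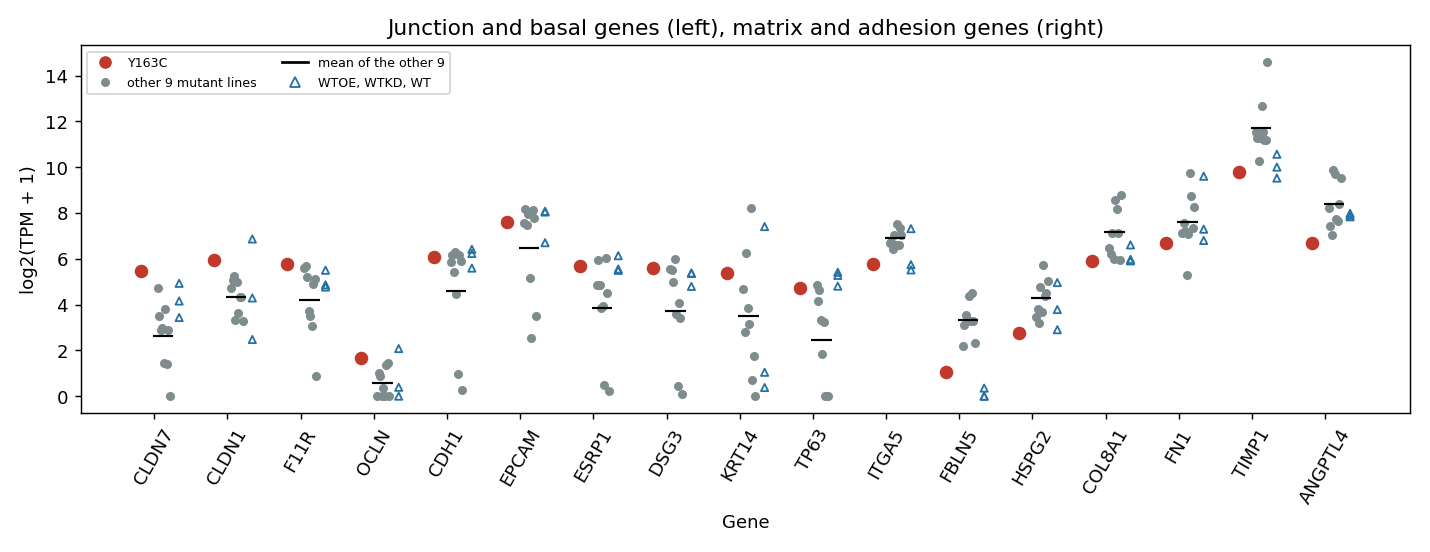
Values in log2(TPM + 1) (y axis) of epithelial junction and basal genes (left) and of matrix and adhesion genes (right, from ITGA5 on; gene on the x axis), with Y163C in red at the left of each gene, the other 9 mutant lines in grey with their mean as a bar, and the 3 controls as open triangles. CLDN7 at 5.47 lies above and TIMP1 at 9.77 below all other mutant lines, and genes such as CDH1 and FN1 lie within them.

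YAP and TAZ are the transcriptional effectors that the Hippo kinases hold in check, and adhesion to matrix is among their inputs. Of 23 of their target genes 1 was higher (4.35%, against 6.60% of all genes), NT5E, an ecto-nucleotidase, at 7.43 in Y163C against 4.17 to 7.04. WTOE and WTKD were above Y163C for NT5E, at 7.81 and 7.93. The call of NT5E was lost with equal medians, with GC bins and without R273H (a difference of 0.95). CTGF and CYR61, the best known targets, stood at 5.99 and 6.34 in Y163C, against medians of 7.22 and 7.70, and both were within the range. The median of the list was -0.48 relative to all genes, below the other lines taken in turn (-0.33 to 1.19), but -0.27 and within them (-0.64 to 0.94) with medians equal in GC bins. Of 23 core genes of the Hippo pathway 1, the kinase activator MOB1B, was higher (4.35%), at 5.86 against 3.39 to 5.48. The call of MOB1B was lost under 7 of the 15 alternatives run for each gene, among them without R175H (0.99) and without Y234C (0.87).

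The p53 target list held no gene outside by the rule. CDKN1A, which encodes the cell cycle inhibitor p21, stood at 7.09 in Y163C, against 5.18, 7.30 and 8.02 as the lowest, median and highest of the other 9. MDM2, the ubiquitin ligase of p53, stood at 6.15 against 4.34 to 6.43. Both lay inside the range. Of the 31 genes of this list compared, 0 were outside by the rule, where 6.60% and 0.988% of all genes were higher and lower. A list of 30 or 31 genes can hold none at those shares. TIGAR, a regulator of glycolysis, was above the range with a difference of 0.93. The list did not hold TP53I13, lower as given above, or PMAIP1, given below. The median of the list was 0.28 above that of all genes, within the other lines (from R248Q as the lowest to H179R as the highest). CCNG1, cyclin G1, stood at 9.70 in Y163C against 6.48 to 9.97, and DDB2, a DNA damage sensor, at 4.32 against 4.24 to 6.25, near opposite ends of their ranges. With medians equal in GC bins DDB2 lay below the other lines, by a gap of -0.09, and 1 gene of the list was lower by the rule. Of 15 BCL2 family genes, PMAIP1 and BCL2L11, which promote apoptosis, were higher (13.3%, against 6.60% of all genes). BCL2L11 stood at 3.89 against 1.81 to 3.24 and PMAIP1 at 5.06 against 2.33 to 5.01, and neither stayed outside with equal medians. The library labelled WT was above Y163C for BCL2L11, at 4.42. PMAIP1 was also lost without Y234C (0.94) and without R248W (0.86). The median of the BCL2 list was 0.11 relative to all genes and within the other lines, but 0.45 and above them (at most 0.35) with medians equal in GC bins. Of 30 proliferation genes 0 were outside by the rule, 4 (TOP2A, PCNA, CCNB1 and CCNE2) were above the range by less than the minimum difference, and the median of the list was 0.04 relative to all genes.

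Genes of MHC class I presentation, the route that loads peptides for display to T cells, had 3 of 15 members higher (20.0%, against 6.60% of all genes). TAP1, a subunit of the peptide transporter, stood at 5.32 in Y163C, against 2.68, 3.71 and 4.71 as the lowest, median and highest of the other 9. PSMB9 and PSMB10, subunits of the immunoproteasome, stood at 2.87 against 0.00 to 2.54 and at 2.32 against 0.00 to 1.64. The library labelled WT was above Y163C for PSMB10, at 3.86. B2M, the light chain of MHC class I, was within the range, at 8.26 against 6.83 to 9.12. TAP1 and PSMB10 were no longer outside with equal medians, nor PSMB9 with quantile normalization or a pseudocount of 5 TPM, and PSMB9 shares 139 exon bases with PSMB8 on the other strand. Of 21 interferon response genes OASL, an oligoadenylate synthetase relative, was higher (4.76%), at 2.96 against 0.00 to 1.90, while the median of the list was -0.51, within the other lines (-0.99 to 0.71). Without R273H and Y234C it was -0.55 and below them (lowest -0.49).

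Among ligands, TGFB1 was lower in Y163C, at 3.29 against 3.72 to 5.21, and all 3 controls were lower still, at 1.48 to 2.84. TGFB3 and BMP2, ligands of the same superfamily, were higher, at 2.10 against 0.00 to 2.04 and at 2.19 against 0.00 to 2.17. ID2, a target of BMP signalling that blocks helix-loop-helix factors, stood at 4.22 against 0.00 to 3.67. The gaps of TGFB3 and BMP2 were 0.06 and 0.02, so that both were hardly separate from the next line. The call of TGFB1 was lost without R175H (-0.995), without R248Q (-0.95), with GC bins and with a pseudocount of 5 TPM, that of BMP2 under 4 alternatives, equal medians among them, and that of TGFB3 with a pseudocount of 5 TPM. NRG4, a ligand of the EGF receptor family, was higher at 3.48 against 0.00 to 2.55, with WTKD at 3.52 and WT at 2.92. NRG4 shares 1918 exon bases with FBXO22 on the opposite strand, which was within its range. In the Notch list HES2 was higher, at 1.81 against 0.00 to 1.22, and HES4 lower as given above. WTOE and WT were above Y163C for HES2, at 3.43 and 2.32, and WTOE for BMP2, at 2.72. TCF7L2, a transcription factor of the Wnt pathway, was lower at 4.59 against 4.90 to 7.38. HES2 was no longer outside with equal medians, nor TCF7L2 without R273H (-0.90).

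Metabolic and housekeeping lists held single genes or small groups outside. NSDHL, an enzyme of cholesterol synthesis, stood at 6.74 in Y163C, against 0.72, 5.46 and 5.98 as the lowest, median and highest of the other 9, the one gene of 29 in its list (3.45%, against 6.60% of all genes). ANGPTL4, a secreted regulator of lipoprotein lipase, was lower, at 6.70 against 7.04 to 9.86. LDHB, a lactate dehydrogenase, was higher, at 11.41 against 8.85 to 11.32. HSPE1 and HSPD1, which together form the mitochondrial chaperonin and share a promoter, stood at 11.10 against 7.44 to 10.76 and at 10.86 against 8.51 to 10.63. The pair share 135 exon bases on opposite strands. MTHFD2, an enzyme of mitochondrial folate metabolism, and PSMA4, of the proteasome, were higher at 6.73 against 4.66 to 6.59 and at 7.49 against 3.80 to 7.39. Of the 15 alternatives run for each gene, MTHFD2 was lost under 8, LDHB under 6, PSMA4 and HSPD1 under 4 and HSPE1 under 1, all of them with medians equal in GC bins. Without R273H alone the differences of MTHFD2, LDHB and HSPD1 were 0.93, 0.92 and 0.96. Without Y234C those of MTHFD2, LDHB and PSMA4 were 0.96, 0.83 and 0.90, and without R248Q those of MTHFD2 and LDHB were 0.95 and 0.92.

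Of 36 complex I genes, NDUFA4, NDUFB3, NDUFC2 and NDUFV2 were higher (11.1%, against 6.60% of all genes). NDUFA4 was listed with complex I, under which it is named, but its protein is a subunit of cytochrome c oxidase. NDUFA4, at 8.13 against 5.21 to 7.78, had the widest gap of the 4, 0.35. Of 45 cytosolic ribosomal protein genes, RPS20, RPS13, RPL24, RPL23, RPL37 and RPS23 were higher (13.3%, against 6.60% of all genes). RPS20, at 9.72 against 7.06 to 9.26, had a gap of 0.47. Ribosomal protein genes have many processed pseudogenes, with which their reads can be shared. None of these 10 genes stayed outside under every alternative. Leaving out Y234C alone ended the calls of RPL23, RPL37 and RPS23 (0.85, 0.87 and 0.96), leaving out R273H those of RPL37, RPS23 and NDUFB3 (0.89, 0.95 and 0.93), and leaving out R248Q or R248W that of RPL23 (0.92 and 0.95). The list medians, 0.15 and -0.18 relative to all genes, were within the other lines.

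**Figure D4:**
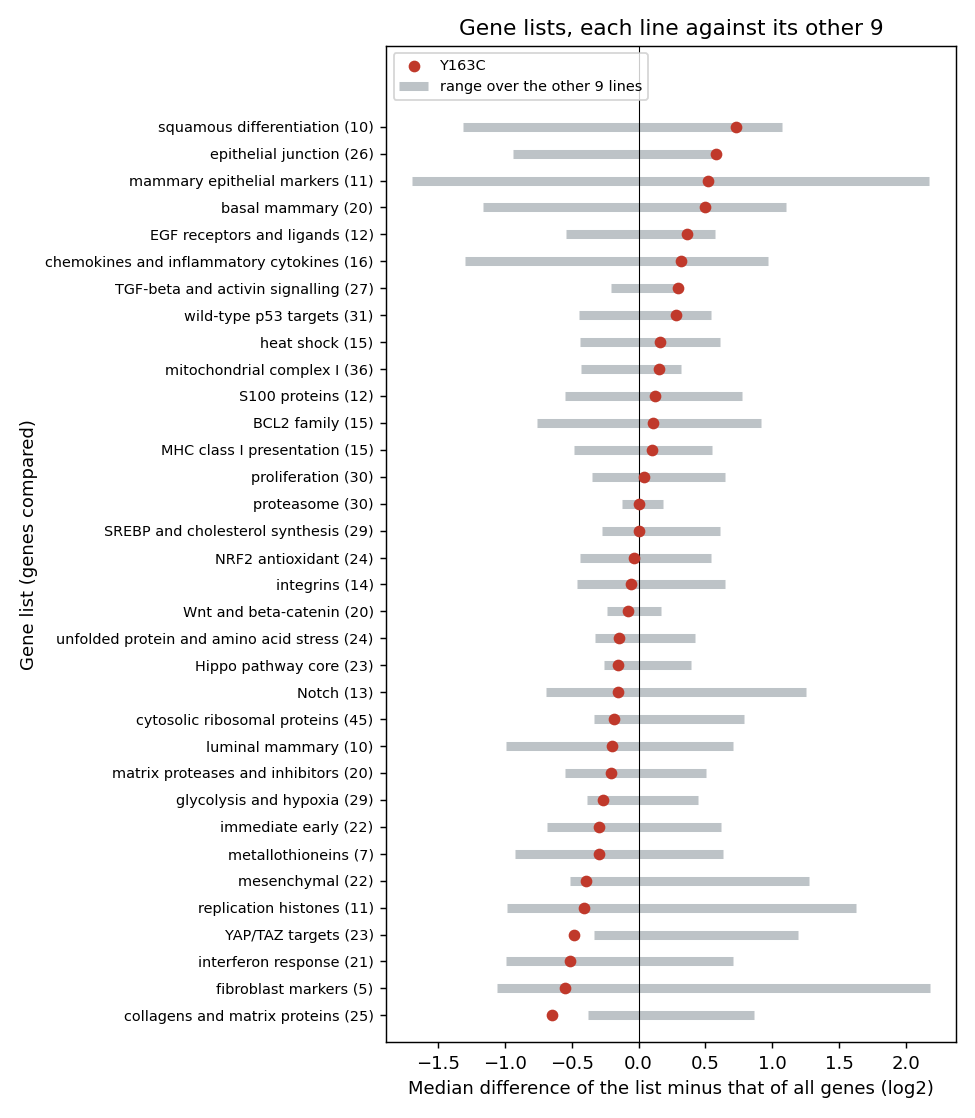
Median difference of each gene list relative to the median of all genes (x axis, log2), for Y163C (red points) and as the range over the other 9 mutant lines, each against its own other 9 (grey bars). Lists of 5 or more genes (y axis, with the number compared) run from the highest Y163C median at the top, and the collagens and matrix proteins (-0.65) and the YAP/TAZ targets (-0.48) lie left of their bars.

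The genes outside differed in base composition, which the rule did not use. The median GC content of the longest transcript was 42.4% in the 983 higher genes and 56.6% in the 147 lower genes, against 46.7% in all genes. In the 20% of genes with the lowest GC content 11.5% were higher and 0.101% lower, and in the 20% with the highest 2.71% were higher and 2.64% lower. The median difference from the other lines, relative to all genes, was 0.36, 0.18, -0.04, -0.23 and -0.44 over 5 such groups from the lowest to the highest GC content. The trend ran the same way in H179R (0.37 to -0.42) and Y220C (0.47 to -0.44), the opposite way in R248Q (-0.31 to 0.44) and Y234C (-0.49 to 0.84), and was flat in R273C and G245S. With the median of each library set equal within 20 bins of GC content, 521 genes were higher and 484 lower, of which 442 and 107 were outside in the values as deposited. The part of GC content in the differences was not tested. ARVCF, with a GC content of 66.0%, and ATPAF1 stayed outside in that setting, by gaps of 3.66 and 2.20, and the 4 complex I genes named above had gaps of 0.00 to 0.33.

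**Figure D5:**
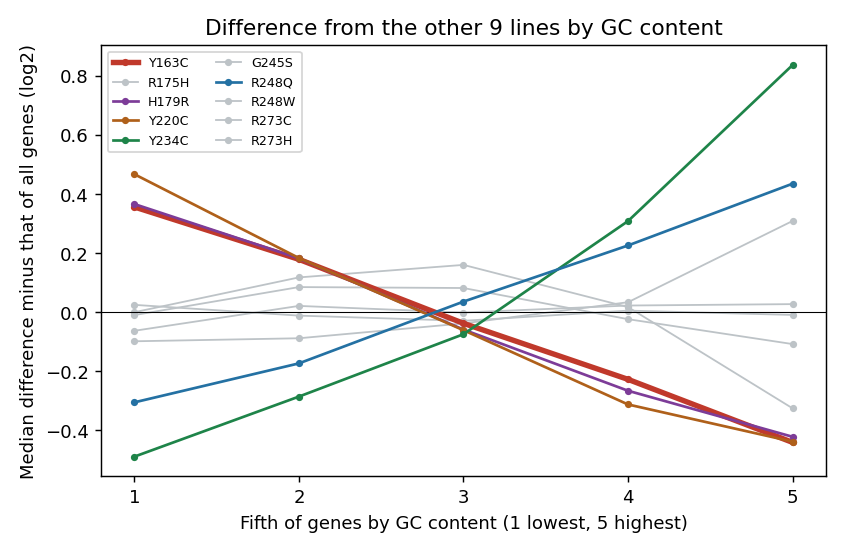
Median difference of each mutant line from its other 9, relative to the median of all genes (y axis, log2), in 5 equal groups of genes by GC content of the longest transcript (x axis). Y163C (thick red) runs from 0.36 to -0.44 close to Y220C and H179R, and Y234C and R248Q run the other way.

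Of the higher genes 13.1% were long noncoding RNAs, against 3.40% of the lower and 8.63% of all genes compared, and 65.9% were protein-coding, against 80.3% and 77.7%. In the 20% of genes with the lowest mean level 10.6% were higher, against 4.17% in the 20% with the highest. These shares ran the same way in R273C (11.2% to 1.65%) and H179R (13.5% to 3.63%). They ran the opposite way in Y234C (3.93% to 7.19%) and R273H. In the lowest group 0.0336% were lower in Y163C, since no gene can be 1 below a mean of less than 1. The part of this limit in the shares of long noncoding RNAs was not tested. Listed at 0 in at least 1 other line were 502 of the higher genes (51.1%) and 38.4% of all genes compared. The estimate for the higher genes was a median of 150 reads in Y163C and 45.4 in the others. By chromosome, the median difference relative to all genes was above that of the other 9 lines on chromosome 8 (0.19, against -0.11 to 0.18) and chromosome 7 (0.11, against -0.10 to 0.09) and below it on chromosome 9 (-0.10, against -0.07 to 0.07). On the other 20 chromosomes it lay within them, with the lowest values on 19 (-0.34) and 22 (-0.34). The margins on chromosomes 7, 8 and 9 were narrow. On each chromosome 1 of the 10 lines must be highest and 1 lowest, so a line can lie outside on some by construction.

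Across the genes compared, the profile of Y163C was closest to that of Y220C (Pearson r = 0.895 over 14884 genes), followed by the library labelled WTKD (0.886), H179R (0.880) and R273C (0.875). The least alike were Y234C (0.790) and R273H (0.781). The mean of its correlations with the other 9 lines was 0.849, against 0.777 to 0.845 for the others, each with its own 9. Genes are not independent, and the lines share base composition trends, so that these values describe the libraries and carry no test. Y220C was also the line nearest to Y163C in 225 of the 983 higher genes (22.9%) and in 29 of the 147 lower genes (19.7%), and H179R in 205 and 22. Y163C, Y220C and H179R are all structural mutants, but R175H, Y234C and G245S are too, and their correlations with Y163C were 0.870, 0.790 and 0.860.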

How the data were processed

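RNA of 13 MCF10A lines was compared, 1 library each, grouped by the GEO labels. According to the methods of the study, total RNA was amplified from a single primer, sequenced in read pairs, aligned to GRCh38 with STAR and counted per gene. Duplicates were marked but kept, mitochondrial RNA was dropped, and the strand used in counting is not given in the sources used here. The authors deposited log2 values of TPM with 1 added, for 58358 genes, and every per-sample column was used. Libraries summed to 1000000 TPM when the log was undone. Peak lists of other lines were not used, since none is of Y163C.

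The value of Y163C was compared with the mean and range of the other 9 mutant lines. A gene was called outside when it was beyond that range and at least 1 from the mean. The gap is the distance to the nearest of the 9. TPM multiplied by the union exon length in GENCODE 44 (57717 genes matched, 98.9%) falls on steps that are whole multiples of 1 read, which gave estimated reads. In Y163C 65.3% of low values were whole within 0.05, so these are estimates only. GC content is that of the longest transcript. Overlapping genes cannot be told apart without strand.

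Named genes were the 15 protein-coding genes with the widest gaps each way among those called, the 3 of other types each way, called members of 37 gene lists, and label checks such as CDKN1A and MDM2. Some of them are not reported here. Other genes were chosen after their values were seen. The lists and the comparison were chosen with earlier results of these data known. Alternatives changed the pseudocount, the scaling, the filter, the threshold and the lines left out. The code, in Python 3.11.15 with numpy 2.4.6, pandas 2.3.3, matplotlib 3.10.9 and Biopython 1.88, was tested on simulated data with planted changes.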

Additional observations from a re-analysis of the deposited data

Results flagged for a closer look

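Among the other 9 mutant lines, 1 line stood far from the remaining ones in 6 of the 80 named genes, by the gap to its nearest neighbour as a share of the whole range (critical value 0.493 for 9 lines). HIGD1B was above 0 in R248Q alone, a share of 1.00. HES4 was far higher in R273H than in any other line (0.613). SFXN3 (0.624) and UQCC1 (0.511) were far higher in R175H, which moved the mean against which Y163C was set. RPL24 was far lower in Y234C (0.537), and NDUFB3 was far lower in R273H (0.536). Over all 10 mutant lines, the share of TPM taken by the 50 most abundant genes was far higher in Y234C, at 46.8%, against 27.2% in Y163C (0.475, critical value 0.466). In all, 7 of 87 sets were flagged. The critical values flag about 1 in 20 independent sets of normally distributed values. That rate does not hold here, since the sets share libraries, most genes were picked by their values in these lines, and some hold many zeros.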

How the results depend on the processing

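The counts of 983 higher and 147 lower genes changed with the settings as follows. A pseudocount of 5 TPM gave 518 and 80, equal medians 599 and 447, quantile normalization 580 and 422, a difference of at least 2 305 and 26, and a gap of at least 1 130 and 10. Medians equal within GC bins gave 521 and 484. No filter on low values gave 1913 higher, a mean of at least 3 over the libraries 414 higher, and protein-coding genes alone 648 higher. Without R273H and Y234C there were 297 lower genes. The settings with GC bins and without that pair of lines were chosen after seeing the data. Leaving out 1 other line gave 885 (without Y234C) to 1329 (without H179R) higher and 149 (without R248Q) to 217 (without Y234C) lower genes. The cause was not tested beyond what fewer genes, fewer lines or stricter thresholds give by construction. Of 1200 values of 80 named genes, 63 moved by at least the standard deviation of the other 9 lines. Genes outside changed sign in 0 of these values, while CDKN1A and MDM2, which were within the range, changed sign in 6. Of 77 named genes outside, 42 stayed outside under each of the 15 settings run for single genes. Of the 30 widest protein-coding gaps, CCDC28B, TP53I13, HOXC11 and AC107871.1 were lost with a pseudocount of 5 TPM, and AC107871.1 also with quantile normalization. No paired analysis was possible because each line had 1 library. Genes with few estimated reads, such as RN7SL368P (5), are limited by depth.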
